A study of Mus musculus with 6 samples.

Results

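The 8 genes described here encode the machinery that loads peptides onto major histocompatibility complex (MHC) class II molecules. They were chosen by name: H2-Aa, H2-Ab1 and H2-Eb1, which encode chains of the class II molecule itself, H2-DMa, H2-DMb1 and H2-DMb2, which encode the peptide-exchange protein H2-DM, Cd74, the invariant chain, and Ciita, the class II transactivator. All 8 were among the 24391 gene rows of the count table and among the 23284 gene rows of the FPKM table, and all 8 passed the filter on low counts that left 12710 genes to test.

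The libraries were made from tumour-associated macrophages, macrophages taken out of a tumour, of colorectal tumours in BALB/c mice. The mice were either wild type (WT) or CCL5-/-, that is, without the gene for the chemokine CCL5. Cells with high CD11b and low F4/80 on their surface (F4/80low) gave 2 WT and 2 CCL5-/- libraries with counts, and cells with low CD11b and high F4/80 (F4/80hi) gave 1 library labelled WT and 1 labelled CCL5-/- with FPKM values. The labels give neither the age of the mice, nor how the tumours arose, nor whether replicates came from separate mice, so the spread behind each p-value is that between libraries and may be technical. For the F4/80hi libraries the genotype field and the sample title name opposite genotypes. Each of these libraries is called here by its genotype field.

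MHC class II molecules are pairs of an alpha and a beta chain that display peptides from engulfed proteins to CD4+ T cells. The invariant chain guides newly made pairs to endosomes and blocks their groove, cathepsins trim it down to a short fragment, and H2-DM exchanges this fragment for antigenic peptides. CIITA is recruited by proteins bound to the class II promoters and is the main switch of the whole set. Dendritic cells and B cells express the set constitutively, whereas macrophages raise it in response to interferon gamma. BALB/c mice carry the d haplotype and make I-A (H2-Aa with H2-Ab1) and I-E, whose alpha chain is listed under the reference symbol H2-Ea-ps because the reference strain C57BL/6 carries an inactive copy. H2-Ea-ps is therefore given beside the 8 genes, but not counted with them.

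The 4 count libraries split by replicate number rather than by genotype. Rn45s, the ribosomal RNA precursor, took 58.44% and 50.035% of the counts in the WT and CCL5-/- libraries of replicate 1, and 0.844% and 1.38% in those of replicate 2. Between 3857011 and 22222208 counts were left outside Rn45s. The leading principal component held 76.0% of the variance and placed both replicate 1 libraries apart from both replicate 2 libraries. The F4/80hi libraries were not separate from replicate 1. The ratio of their FPKM values predicted how reads split between WT replicate 1 and CCL5-/- replicate 1, with the library labelled CCL5-/- in the place of WT. The median chi-square was 0.334 over 6677 genes, below the 0.455 of independent reads, and the 11 other ways of matching 2 count libraries gave 3.58 to 9.0. The 6 deposited libraries were therefore counted as 4, the F4/80hi values are no second measurement, and which gate the replicate 1 cells came from cannot be told. Ccl5, read as a check of the labels, had 255 and 3976 reads in WT but 35 and 82 in CCL5-/-, as the labels imply. In F4/80hi it was at 15.7 FPKM in the library labelled WT and at 145 in the one labelled CCL5-/-, against the labels. Macrophage markers were present in every count library, with 16 of 17 tested, and Adgre1, which encodes F4/80, stood between 35.3 and 53.7 CPM.

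Class II promoters are known for a shared arrangement in which an X box, bound by the RFX complex, lies a fixed distance upstream of a Y box, bound by NF-Y, with a CREB site between them in some genes. The sequences of 4 genes are shown with the parts of this arrangement that were found in each. They are RefSeq promoter windows (GRCm38.p6) of up to 200 bases before the start site, shortened where a GENCODE M21 exon of the gene begins. Capitals mark TGATTGG, which holds the reversed CCAAT core, AACNGATG and TGACGTCA. H2-Aa lies at chr17:34287824-34288023 on the minus strand, and the others on the plus strand, with H2-Eb1 at chr17:34305667-34305866, H2-DMb2 at chr17:34145049-34145235 and H2-Eb2 at chr17:34325475-34325664. H2-Eb2, a class II beta gene that is not among the 8, is included as a barely expressed relative with 0 to 5 reads per library.
H2-Aa: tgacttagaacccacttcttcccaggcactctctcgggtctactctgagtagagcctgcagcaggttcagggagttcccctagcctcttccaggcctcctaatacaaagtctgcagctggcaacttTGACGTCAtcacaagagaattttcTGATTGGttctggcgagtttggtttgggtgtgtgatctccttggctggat
H2-Eb1: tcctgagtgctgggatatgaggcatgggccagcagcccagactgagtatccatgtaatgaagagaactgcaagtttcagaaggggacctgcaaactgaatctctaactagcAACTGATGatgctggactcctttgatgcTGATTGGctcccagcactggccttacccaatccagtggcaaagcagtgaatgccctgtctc
H2-DMb2: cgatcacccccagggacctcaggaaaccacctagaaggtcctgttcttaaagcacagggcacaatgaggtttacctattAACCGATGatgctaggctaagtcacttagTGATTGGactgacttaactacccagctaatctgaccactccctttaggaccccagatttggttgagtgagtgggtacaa
H2-Eb2: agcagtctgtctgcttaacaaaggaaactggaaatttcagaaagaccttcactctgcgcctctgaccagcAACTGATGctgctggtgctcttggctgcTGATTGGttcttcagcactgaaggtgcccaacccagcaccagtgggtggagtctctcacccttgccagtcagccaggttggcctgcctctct

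In H2-Eb1 and H2-Eb2, 20 bases lay between AACNGATG and TGATTGG, and in H2-DMb2 and H2-DMb1 21 bases. The TGATTGG of H2-Eb1 began 61 bases before the start site, that of H2-DMb1 63, that of H2-DMb2 92 and that of H2-Eb2 102. H2-DMb1 is not printed because GENCODE M21 begins its transcript further upstream, so that the stretch lies in its 5′ UTR. H2-Aa had no AACNGATG, but held TGACGTCA 16 bases before a TGATTGG that began 50 bases before the start site. Searched on both strands of 32851 windows of 200 bases, TGATTGG was found in 6.57%, AACNGATG in 1.55% and TGACGTCA in 1.47%. Only 15 windows (0.0457%) held TGATTGG and AACNGATG on the same strand, and the windows of H2-Eb1, H2-DMb1, H2-DMb2 and H2-Eb2 were among these 15. The motifs were chosen after the sequences had been read. The expressed H2-Eb1 and the barely detected H2-Eb2 thus held the same letters at the same spacing. The promoter table matched 5 of the 8 genes. H2-Ab1, Cd74 and Ciita had no entry. The windows of H2-DMa, chr17:34122632-34122821 and chr17:34125318-34125517, held none of these motifs. Both lie inside the GENCODE M21 span of the gene (chr17:34119541-34139101). Whether they cover the start site used in these cells was not tested.

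H2-Aa encodes the alpha chain of I-A (GRCm38 chr17:34282744-34287823, minus strand, GENCODE M21). Its level, in read counts scaled to library size with TMM factors (CPM), was 84.5 in WT replicate 1, 824 in WT replicate 2, 123 in CCL5-/- replicate 1 and 363 in CCL5-/- replicate 2. The WT libraries held the lowest and the highest value, and both CCL5-/- libraries lay between them. H2-Ab1, the beta chain of I-A (chr17:34257689-34269419), followed the same order, at 71.5 and 881 CPM in WT and 118 and 444 CPM in CCL5-/-, replicate 1 before replicate 2. H2-Eb1, the beta chain of I-E (chr17:34305867-34316674), was at 87.8 and 465 CPM in WT and 120 and 250 CPM in CCL5-/-. Its alpha chain partner H2-Ea-ps was at 136 and 923 CPM in WT and 178 and 366 CPM in CCL5-/-, again with both CCL5-/- libraries between the WT libraries.

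Cd74 (chr18:60803848-60812652), whose product accompanies every new class II pair, was at 283 and 920 CPM in WT and 370 and 634 CPM in CCL5-/-. H2-DMb1 (chr17:34153072-34160230), a beta chain of H2-DM, was at 5.50 and 48.2 CPM in WT and 11.3 and 24.7 CPM in CCL5-/-. H2-DMb2 (chr17:34143307-34151555), its near copy, was at 13.6 and 28.2 CPM in WT and 14.8 and 17.5 CPM in CCL5-/-. For these genes too the order from low to high was WT replicate 1, CCL5-/- replicate 1, CCL5-/- replicate 2 and WT replicate 2, an order shown by 6 of the 8 genes and by 10.2% of all genes tested. H2-DMa (chr17:34119541-34139101), the alpha chain of H2-DM, varied least among the structural genes, at 39.5 and 61.7 CPM in WT and 33.5 and 41.5 CPM in CCL5-/-. Ciita (chr16:10480059-10528418) was at 6.01 and 6.34 CPM in WT and 5.81 and 3.23 CPM in CCL5-/-, from 35 to 193 reads per library. It was the only member whose CCL5-/- libraries both lay below both WT libraries, as 8.24% of all genes tested did. GENCODE exons of H2-DMa share 360 bases with the opposite-strand gene Brd2 and those of Ciita 329 bases with Dexi. The sources used here do not state whether counting used the strand, so reads from those stretches cannot be assigned with certainty.

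**Figure D1:**
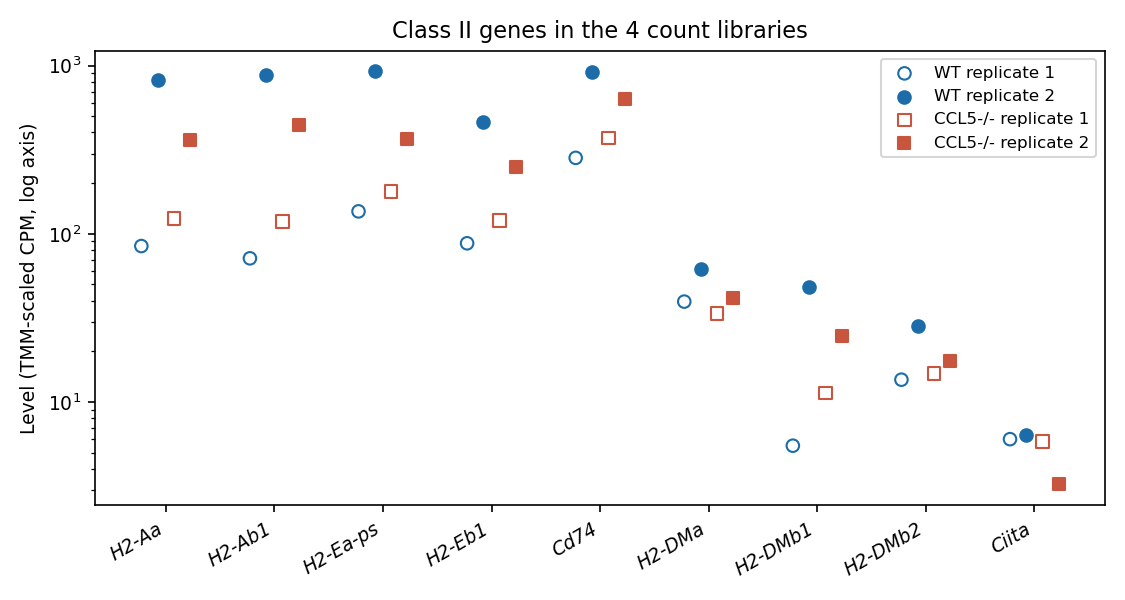
Level of each class II gene in the 4 count libraries labelled F4/80low (y axis, TMM-scaled CPM on a log axis; open symbols replicate 1, filled symbols replicate 2, circles WT, squares CCL5-/-). For H2-Aa the WT libraries stand at 84.5 and 824 CPM with both CCL5-/- libraries between them, while Ciita stands between 3.23 and 6.34 CPM.

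The 8 genes together took 0.0892% of the counts outside Rn45s in WT replicate 1 (95% Wilson interval 0.0863 to 0.0922), 0.443% in WT replicate 2 (0.440 to 0.446), 0.131% in CCL5-/- replicate 1 (0.128 to 0.134) and 0.258% in CCL5-/- replicate 2 (0.255 to 0.260). The intervals cover counting error only, and no 2 of them overlapped.

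Compared per kilobase of the longest GENCODE M21 protein-coding transcript, the levels in the count table fell into 3 tiers. Cd74 (200 to 652 CPM per kb over the 4 libraries), H2-Aa (74.9 to 730), H2-Ab1 (59.0 to 727) and H2-Eb1 (52.6 to 279) overlapped in their ranges. H2-DMa (16.7 to 30.8 CPM per kb), H2-DMb1 (3.92 to 34.3) and H2-DMb2 (9.15 to 19.0) lay below the lowest H2-Eb1 value and overlapped among themselves. Ciita was lowest, between 0.538 and 1.06 CPM per kb. Cd74 led in both replicate 1 libraries and in CCL5-/- replicate 2, where the per-length levels were 450 for Cd74, 367 for H2-Ab1 and 322 for H2-Aa. In WT replicate 2 the order at the top differed, with H2-Aa at 730, H2-Ab1 at 727 and Cd74 at 652 CPM per kb.

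The proportions between members differed with the replicate number. In reads, the ratio of Cd74 to H2-Aa was 3.34 in WT replicate 1 and 3.01 in CCL5-/- replicate 1, but 1.12 in WT replicate 2 and 1.75 in CCL5-/- replicate 2. The ratio of H2-Aa to H2-DMa was 2.14 and 3.67 in replicate 1 and 13.3 and 8.74 in replicate 2, WT before CCL5-/-. In the count table the ratio of the I-A chains, H2-Aa to H2-Ab1, lay between 0.817 and 1.18, and that of the I-E chains, H2-Ea-ps to H2-Eb1, between 1.46 and 1.99. In FPKM the ratio of H2-Aa to H2-Ab1 was 1.63 in the F4/80hi library labelled WT and 1.97 in the one labelled CCL5-/-. Among the chains of H2-DM, the ratio of H2-DMa to H2-DMb2 lay between 2.19 and 2.91 in the count table. H2-DMa and H2-DMb1 did not keep their proportions. H2-DMa had 230 reads and H2-DMb1 32 in WT replicate 1, and 1878 and 1466 in WT replicate 2. In CCL5-/- these were 288 and 97 reads in replicate 1, and 1131 and 672 in replicate 2.

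H2-DMb1 and H2-DMb2 shifted against each other. There were 0.405 H2-DMb1 reads per H2-DMb2 read in WT replicate 1 (counting error alone gives 0.269 to 0.609 at the 95% level) and 0.764 in CCL5-/- replicate 1 (0.587 to 0.994), against 1.71 in WT replicate 2 (1.57 to 1.86) and 1.41 in CCL5-/- replicate 2 (1.25 to 1.58). Their transcripts were 94.6% identical over 1219 aligned bases, with an identical run of 221 bases, so how reads were shared between them is uncertain. The other pairs among the 6 chain genes were 53.7% to 69.4% identical. Summed, the H2-DMb genes were at 19.1 and 76.4 CPM in WT and 26.0 and 42.2 CPM in CCL5-/-, replicate 1 before replicate 2.

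Replicate 2 was compared with replicate 1 in a fit that also held the genotype. Of the 8 genes, 5 were higher in replicate 2 at an adjusted p under 0.05 in edgeR's quasi-likelihood test, where 13.9% of all genes tested were called higher and 18.0% lower. H2-Ab1 was 6.77-fold higher (log2 2.76, SE 0.42, edgeR adjusted p = 0.00166), H2-Aa 5.34-fold (2.42, SE 0.41, edgeR adjusted p = 0.0031) and H2-Eb1 3.31-fold (1.73, SE 0.32, edgeR adjusted p = 0.00207). H2-DMb1 was 4.07-fold higher (2.03, SE 0.49, edgeR adjusted p = 0.0299), and Cd74 2.36-fold (1.24, SE 0.28, edgeR adjusted p = 0.00408). H2-Ea-ps was likewise higher (1.90, SE 0.41, edgeR adjusted p = 0.00913). H2-DMb2 (0.64, SE 0.25, edgeR adjusted p = 0.0683), H2-DMa (0.48, SE 0.22, 0.109) and Ciita (-0.39, SE 0.37, 0.455) did not pass.

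For 7 of the 8 genes both replicate 2 libraries lay above both replicate 1 libraries, where 34.2% of all genes tested did so, and Ciita was the exception. The median log2 difference was 1.48 over the 8 genes and 0.0036 over all genes tested. H2-DMb2 passed when no filter was applied (edgeR adjusted p = 0.0184), with DESeq2 size factors in edgeR (0.0479) and without the Rn45s row (0.0495). The step between replicates was greater in WT, where H2-Aa differed 9.75-fold and H2-Ab1 12.3-fold, than in CCL5-/-, where they differed 2.95-fold and 3.76-fold. A test of that difference could not be fitted, since 4 libraries leave no residual spread for it. Ribosomal RNA share, depth and marker levels of other cells moved with the replicate number, and their part in these differences was not tested. In such bulk libraries more class II transcript per cell and more class II-positive cells cannot be told apart.

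**Figure D2:**
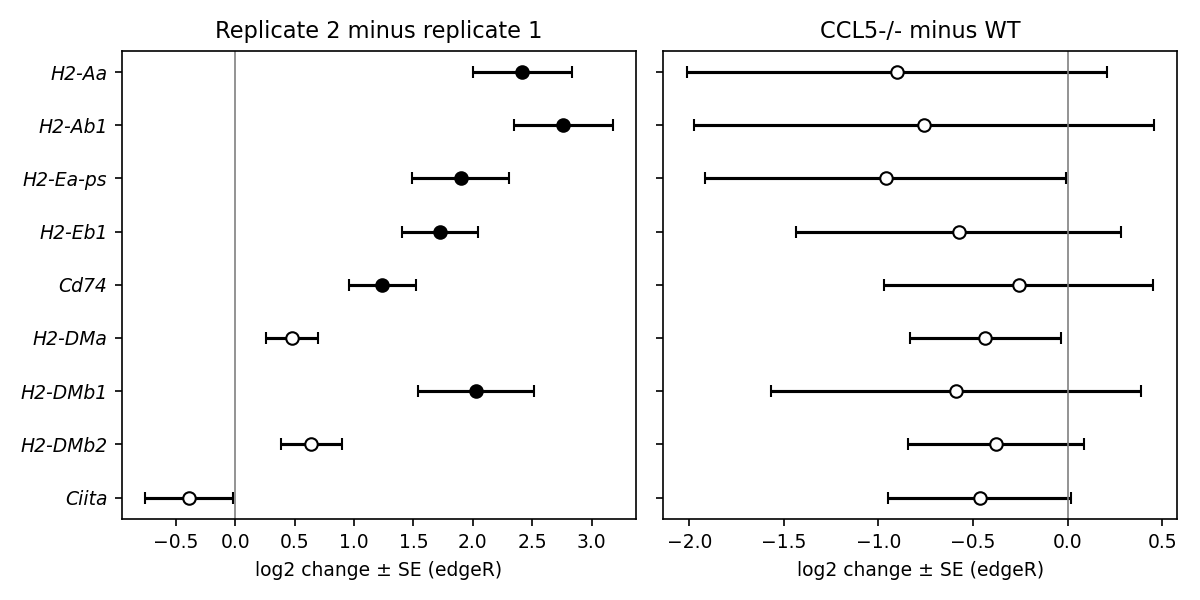
Change in log2 with its standard error for each class II gene (edgeR), as replicate 2 minus replicate 1 on the left and CCL5-/- minus WT on the right, with filled points for an adjusted p under 0.05. The left panel has 5 of the 8 genes and H2-Ea-ps filled, with H2-Ab1 at 2.76, and the right panel none, with H2-Aa at -0.90.

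The comparison of genotypes asks whether loss of CCL5 altered class II expression in the macrophages labelled F4/80low, although the gate of the replicate 1 libraries cannot be told. All 8 genes had a negative fitted difference, CCL5-/- against WT, and none passed edgeR's test (adjusted p = 1.0 for each), where 0.0% of the 12710 genes tested were called. With a term for the replicate number 0 of the 8 passed either (edgeR), where 0.0787% of genes were called, each of them lower in CCL5-/-. Ccl5 itself was called by neither fit, at log2 -4.64 (SE 0.69) without the term. With the term it was at -4.58 (SE 0.53, edgeR adjusted p = 0.0985). Not passing therefore does not show that a gene was unchanged. H2-Aa stood at 454 ± 523 CPM in WT and 243 ± 170 CPM in CCL5-/- (SD, n = 2 each), a log2 difference of -0.90 (SE 1.11). For H2-Ab1 the means were 476 ± 572 and 281 ± 231 CPM (-0.76, SE 1.22), and for H2-Eb1 276 ± 267 and 185 ± 91.9 CPM (-0.58, SE 0.86). Cd74 stood at 601 ± 451 and 502 ± 187 CPM (-0.26, SE 0.71). The SD exceeded or nearly equalled the WT mean for the 3 chain genes, and the difference between genotypes was smaller than the spread between libraries.

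The other members gave -0.43 (SE 0.40) for H2-DMa, -0.59 (SE 0.98) for H2-DMb1, -0.38 (SE 0.46) for H2-DMb2 and -0.47 (SE 0.48) for Ciita. Ciita stood at 6.18 ± 0.235 CPM in WT and 4.52 ± 1.82 CPM in CCL5-/- (SD, n = 2 each). Unadjusted p-values of edgeR's quasi-likelihood fit across all genes ran from 0.321 for H2-DMa to 0.729 for Cd74. The median difference was -0.52 over the 8 genes and -0.014 over all genes tested. In the authors' deposited table the log2 fold changes of the 8 genes ran from -0.24 (H2-Aa) to -0.10 (Cd74), with an adjusted p of 1.0 for each.

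The sign depended on the replicate number. In the replicate 1 pair, the CCL5-/- library was higher than the WT library for 6 of the 8 genes, where 50.6% of all genes tested were higher. H2-DMb1 (log2 1.02) was the only member at least 2-fold higher, as 3.95% of all genes tested were. H2-Ab1 (0.73), H2-Aa (0.54), H2-Eb1 (0.45), Cd74 (0.39) and H2-DMb2 (0.12) were also higher, and Ciita (-0.048) and H2-DMa (-0.24) were lower. In the replicate 2 pair the CCL5-/- library was lower for 8 of the 8 genes, where 52.3% of all genes tested were lower. There H2-Aa (log2 -1.18) was the only member at least 2-fold lower, as 5.05% of all genes tested were. H2-Ab1 (-0.99), H2-DMb1 (-0.96), Ciita (-0.95) and H2-Eb1 (-0.89) came next, followed by H2-DMb2 (-0.68), H2-DMa (-0.57) and Cd74 (-0.54).

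Thus 6 of the 8 genes were higher in CCL5-/- in the replicate 1 pair and lower in the replicate 2 pair, a pattern of 25.8% of all genes tested. H2-Ea-ps did the same, at 0.39 and -1.33. The medians over the 8 genes were 0.42 and -0.92 in the 2 pairs, against 0.0060 and -0.024 over all genes tested. Without WT replicate 2 the same 6 fitted differences turned positive, reaching 1.98 for H2-Ab1, 1.71 for H2-DMb1 and 1.52 for H2-Aa. Without CCL5-/- replicate 1, that of Cd74 turned to 0.12. Each pair is 1 library against 1, so neither carries a test, and 6 of the 8 pooled negative values rest on WT replicate 2, which was the highest library for all 8 genes (25.0% of all genes tested).

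**Figure D3:**
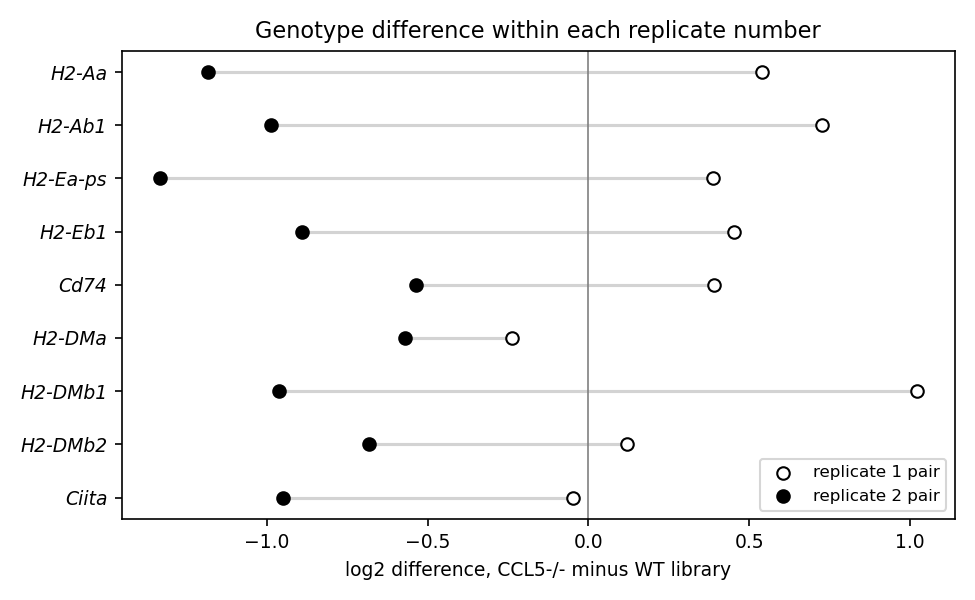
Difference between the CCL5-/- and the WT library in log2 for each class II gene, within replicate 1 (open) and within replicate 2 (filled). Both points lie left of 0 only for H2-DMa (-0.24 and -0.57) and Ciita (-0.048 and -0.95), and the other genes lie on opposite sides.

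The list of other genes of the class II route held loading partners, cathepsins, the thiol reductase, ubiquitin ligases and tetraspanins, 18 of them tested. In edgeR's test 2 were higher in replicate 2 and 2 lower, where 13.9% and 18.0% of all genes were, with a median log2 difference of 0.14. The higher ones were H2-Ea-ps and Cd63, a tetraspanin of endosomes (0.90, edgeR adjusted p = 0.0117). March1, which encodes a ubiquitin ligase that removes class II from the surface, was lower in replicate 2 (-2.32, edgeR adjusted p = 0.000339), at 11.0 and 2.73 CPM in WT and 8.02 and 1.25 CPM in CCL5-/-. Cd37, a tetraspanin of leukocytes, was also lower (-0.66, edgeR adjusted p = 0.0471).

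The enzymes that cut the invariant chain and engulfed proteins varied less. Ctss, the protease best known for cutting the invariant chain, was at 338 and 596 CPM in WT and 476 and 378 CPM in CCL5-/-. Its replicate difference was 0.24 (edgeR adjusted p = 0.563), and Ctsl, Ctsb, Ctsd and Lgmn differed by 0.021 to 0.18. H2-Oa and H2-Ob, whose products restrain H2-DM and are typical of B cells and some dendritic cells, stayed between 3 and 34 reads per library. For the genotype 0 of the 18 passed, with a median of -0.15. Ctsh had the greatest difference of the named genes in the replicate 2 pair apart from H2-Ea-ps, at -1.31.

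Of 23 regulators of class II transcription tested, 3 were higher and 5 lower in replicate 2, shares near the 13.9% and 18.0% of all genes, with a median of 0.27, and 0 passed for genotype. Nfyb, a subunit of NF-Y (0.82, edgeR adjusted p = 0.0186), Socs1, an inhibitor of interferon signalling (1.08, 0.00199), and Ifngr2, a chain of the interferon gamma receptor (0.60, 0.0471), were higher. The coactivators Ep300 and Crebbp were lower (-1.69 and -1.52, edgeR adjusted p = 5.77e-05 and 0.000311). Rfx5, the RFX subunit that binds the X box, was lower too (-0.997, edgeR adjusted p = 0.00828), as were Irf4 (-1.25, 0.0018) and Prdm1, a repressor of Ciita (-1.42, 0.000379). Ciita itself, Spi1 (0.27, edgeR adjusted p = 0.386) and Irf8 (0.42, 0.226) did not pass.

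Most class I genes were higher in replicate 2. Of 15 tested, 10 were called higher and 1 lower, where 13.9% and 18.0% of all genes were, with a median of 0.76. H2-K1, a class I heavy chain, was at 169 and 1340 CPM in WT and 257 and 1190 CPM in CCL5-/- (2.60, edgeR adjusted p = 1.89e-05). B2m, the light chain, was higher by 1.34 (edgeR adjusted p = 0.00504), and Nlrc5, the class I counterpart of CIITA, was lower (-0.93, edgeR adjusted p = 0.0277). Of 10 neighbours tested, 4 were higher, all of them class I genes that lie among the class II genes: Psmb9 (1.63, edgeR adjusted p = 0.00124), Tap1 (0.76, 0.0275), Psmb8 (0.75, 0.034) and Tap2 (0.74, 0.0265). The other 6 neighbours, Daxx, Ring1, Rxrb, H2-Ke6, Tapbp and Brd2, did not pass. All 15 class I genes were higher in CCL5-/- in the replicate 1 pair and lower in the replicate 2 pair, as 25.8% of all genes were, with medians of 0.39 and -0.36.

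The interferon gamma list showed the same reversal between pairs. Of its 16 genes, 14 were higher in CCL5-/- in the replicate 1 pair (median 0.85) and lower in the replicate 2 pair (median -0.62), where 25.8% of all genes were. Cxcl9, a chemokine induced by interferon gamma, was at 2.92 and 247 CPM in WT and 42.9 and 116 CPM in CCL5-/-, the order seen for the class II chains. The replicate difference of Cxcl9 did not pass (3.42, SE 2.3, edgeR adjusted p = 0.473). Of the 16 genes, 3 were called higher in replicate 2 and 1 lower (edgeR), where 13.9% and 18.0% of all genes were. Ifng had 10 and 325 reads in WT and 16 and 114 in CCL5-/-, and was higher in replicate 2 (1.87, edgeR adjusted p = 0.0051). Gbp2 (1.22, edgeR adjusted p = 0.00453) and Socs1 were also higher, and Cd274, which encodes PD-L1, was lower (-0.92, edgeR adjusted p = 0.0447). For genotype 0 of the 16 passed. Of 8 costimulatory genes, only Cd40 was called higher in replicate 2 (1.83, edgeR adjusted p = 0.00622), where 13.9% of all genes tested were. Cd86 was at 60.5 and 149 CPM in WT and 67.8 and 62.9 CPM in CCL5-/- (0.60, edgeR adjusted p = 0.194). The lists were described by counts and medians only, with no test of a list.

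**Figure D4:**
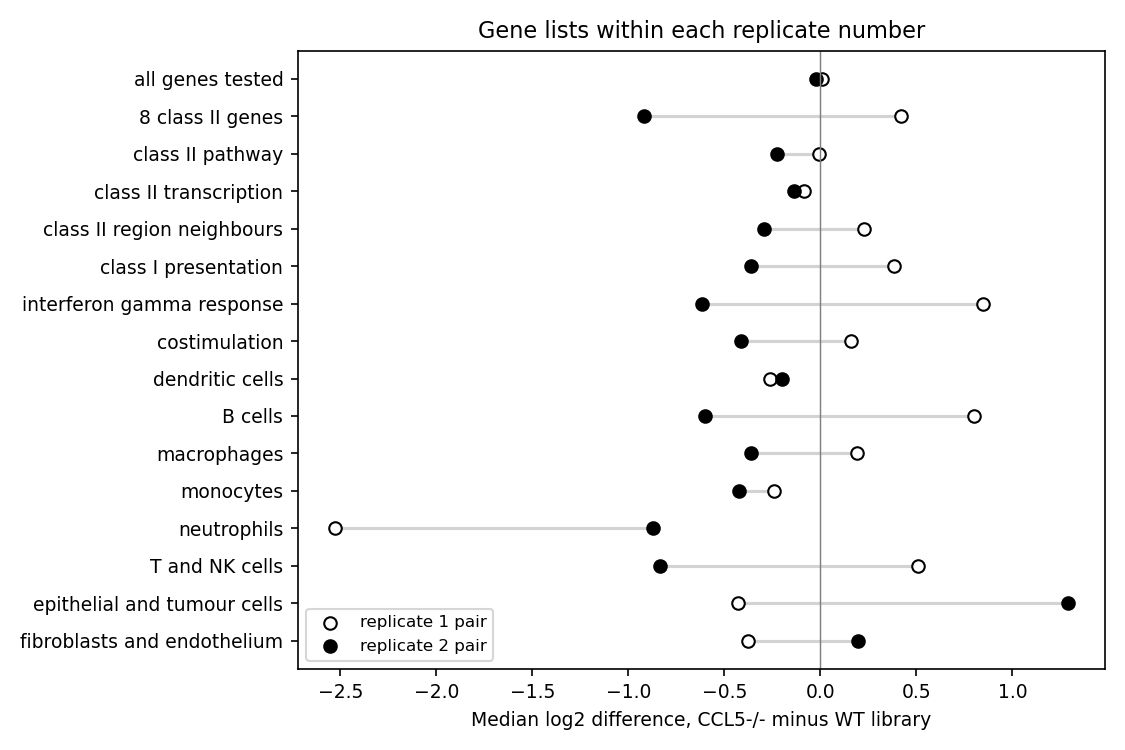
Median log2 difference between the CCL5-/- and the WT library over the tested genes of each list, within replicate 1 (open) and within replicate 2 (filled). The 8 class II genes stand at 0.42 and -0.92, the interferon gamma list at 0.85 and -0.62, and all genes tested near 0.

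Markers of the other cells that could carry class II transcripts were read in the same libraries. Of 22 dendritic cell markers 21 were tested, and their summed level was 574 and 488 CPM in WT and 431 and 511 CPM in CCL5-/-, of which Cd24a made up 145 CPM in WT replicate 1 and Fscn1 145 CPM in CCL5-/- replicate 2. In replicate 2, 2 of them were called higher and 3 lower (edgeR), near or under the shares of 13.9% and 18.0% of all genes. Flt3 had 13 to 41 reads per library and Xcr1 12 to 106. Clec9a, a marker of cross-presenting dendritic cells that did not pass the filter on low counts, had 2 and 50 reads in WT and 6 and 9 in CCL5-/-, most in WT replicate 2. B cell markers were low. Ms4a1 had 0 to 11 reads per library and Pax5 0 to 3, while Bank1 had 4 to 54. Mzb1 had 2 and 57 reads in WT and 2 and 20 in CCL5-/-, and Cd79a 0 and 34 in WT and 2 and 19 in CCL5-/-, both most in WT replicate 2. These reads are not scaled to depth, and WT replicate 2 was the deepest library. In CPM it was highest for 2 of the 5 B cell markers tested and 2 of the 21 dendritic cell markers. Of all genes tested, 25.0% were highest there. The 5 B cell markers tested of 16 listed had 0 called between replicates, and the list summed to 2.06 and 6.25 CPM in WT and 4.07 and 4.30 CPM in CCL5-/-.

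T and NK cell markers summed to 90.7 and 322 CPM in WT and 149 and 133 CPM in CCL5-/-, and 12 of 13 were higher in CCL5-/- in the replicate 1 pair and lower in the replicate 2 pair, as 25.8% of all genes were. Gzma made up 34.7 and 196 CPM of these sums in WT and 64.6 and 65.2 CPM in CCL5-/-. Its replicate difference did not pass (1.23, edgeR adjusted p = 0.412). In replicate 2, 1 of the 13 was called higher, Ncr1 (1.41, edgeR adjusted p = 0.0234), where 13.9% of all genes tested were. Neutrophil markers went the other way. They summed to 4110 and 652 CPM in WT and 911 and 379 CPM in CCL5-/-. Of 12 tested, 9 were lower in replicate 2 (edgeR), where 18.0% of all genes tested were. Monocyte markers summed to 3772 and 1532 CPM in WT and 2951 and 1453 CPM in CCL5-/-, with 6 of 10 lower, against the same 18.0%. Fn1 made up 2690 of the 3772 CPM of monocyte markers in WT replicate 1. Plac8 was the only monocyte marker called higher in replicate 2 (0.91, edgeR adjusted p = 0.0162), at 171 and 434 CPM in WT and 140 and 194 CPM in CCL5-/-. Ly6c2, at 56.0 and 71.3 CPM in WT and 55.2 and 26.6 CPM in CCL5-/-, did not pass (-0.35, edgeR adjusted p = 0.439). It was highest in WT replicate 2, as were Plac8 and the class II genes. Among 16 macrophage markers 3 were higher in replicate 2 (C1qa, C1qb and C1qc) and 5 lower, where 13.9% and 18.0% of all genes tested were. The list summed to 2589 and 3387 CPM in WT and 2737 and 2442 CPM in CCL5-/-. The part of these cells in the class II differences was not tested.

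Of the 10 genes whose pattern lay closest to that of the class II genes, 1 is on the class I list, B2m, and none on the class II lists. Likeness was the root-mean-square distance of the centred log2 CPM over the 4 libraries from the median profile of the 8 genes, among 8401 genes of sufficient level. The closest were Mrpl13 (0.0304), Abracl (0.0710), Esf1 (0.0764), Ndufs4 (0.0788) and Pin4 (0.0866), then B2m (0.0870), Zbtb32 (0.0885), Naca (0.0925), Mcee (0.0990) and C1qc (0.102), where the median gene lay at 0.793. Mrpl13, a mitochondrial ribosomal protein gene, was at 39.0 and 163 CPM in WT and 55.3 and 104 CPM in CCL5-/-. Among the 8 genes themselves the distance was 0.131 for Cd74 and 0.149 for H2-Eb1, 0.391 to 0.665 for the other chain genes, and 0.940 for Ciita. The profile spans 4 libraries, 2 of which share a high ribosomal RNA content, and no p is given.

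In the F4/80hi libraries the FPKM values were compared without a test, as 1 library per label was deposited. The library labelled CCL5-/- was lower for 6 of the 8 genes on the log2(FPKM + 1) scale, where 52.3% of 11670 genes were lower. The values in the library labelled WT and in the one labelled CCL5-/- were 436 and 340 FPKM for Cd74 (-0.36), 76.6 and 73.1 for H2-Aa (-0.07) and 46.9 and 37.2 for H2-Ab1 (-0.33). They were 84.5 and 60.3 FPKM for H2-Eb1 (-0.48), 10.7 and 6.43 for H2-DMb1 (-0.66) and 23.8 and 19.2 for H2-DMb2 (-0.30). H2-DMa was at 38.8 and 42.2 FPKM (0.12) and Ciita at 0.846 and 1.21 FPKM (0.26). None differed 2-fold, as 2.35% of genes did upward and 1.58% downward. With the titles in place of the genotype fields every sign would turn, and would then be that of the replicate 1 pair of the count libraries.

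The FPKM and count tables gave the 2 I-A chains different weights. CPM per kb used the length of the longest GENCODE M21 protein-coding transcript, chosen here. If both tables count a gene alike and FPKM used that length, FPKM divided by CPM per kb is the same for all genes. Relative to the median gene, that ratio was -1.10 in log2 for H2-Ab1 in the library labelled CCL5-/- over WT replicate 1, with 0.752% of 7584 genes lower, and -1.51 in the library labelled WT over CCL5-/- replicate 1, with 0.275% of 8361 genes lower. H2-Aa gave -0.47 and -0.96, with 12.6% and 1.03% of genes lower. H2-Eb1 (-0.24 and -0.23), Cd74 (0.33 and 0.28) and H2-Ea-ps (0.19 and 0.10) lay within or at the edge of the middle 50% of genes. H2-DMa (0.66 and 0.76) and H2-DMb2 (0.63 and 0.80) lay above it. Ciita had enough reads in CCL5-/- replicate 1 only, and gave -0.65. The split of reads between the matched libraries also departed for these chains alone among the 8. WT replicate 1 held 31.7% of the H2-Aa reads of the replicate 1 pair (95% interval 29.5 to 34.1), where the FPKM ratio predicted 39.5%, and 29.0% of the H2-Ab1 reads (26.7 to 31.4), where it predicted 35.1%. The levels of the I-A chains relative to Cd74 and H2-DMa therefore depend on the table or on the lengths used, and why was not tested.

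**Figure D5:**
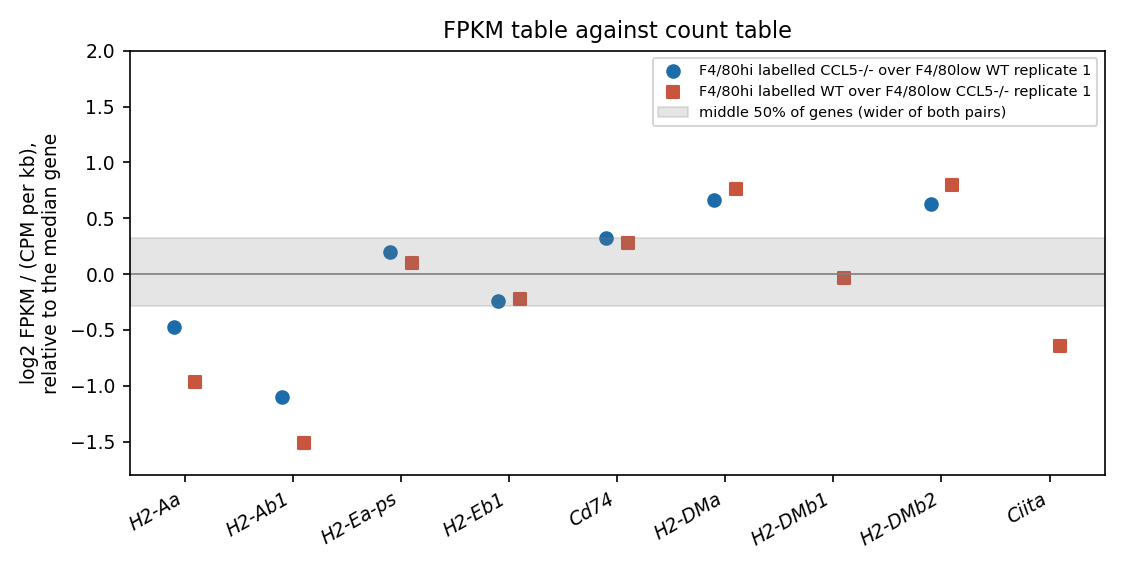
Ratio of FPKM to CPM per kilobase in log2, relative to the median gene, for each class II gene in the 2 matched library pairs (circles over WT replicate 1, squares over CCL5-/- replicate 1); the grey band holds the middle 50% of genes. H2-Ab1 lies lowest, at -1.10 and -1.51, and H2-DMb1 and Ciita have no circle because fewer than 50 reads were counted there.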

How the data were processed

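RNA of 6 deposited libraries was measured by sequencing. RNA extracted with Trizol went into Illumina TruSeq RNA LT V2 libraries, per the labels' protocols. The count table deposited by the authors held raw read counts per gene, and a comparison table held the authors' normalised signal (counts divided by a size factor per library), log2 fold change, test score and p-value. The F4/80hi table deposited by the authors held FPKM with lower and upper bounds. Per the submitters' processing notes, STAR, HTSeq, DESeq2, TopHat2 2.1.1 and Cufflinks 2.2.1 were among the tools, and human and mouse builds were listed. The sources used here do not assign them to tables. FPKM loci overlapped the RefSeq GRCm38.p6 gene for 99.0% of 20723 symbols.

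The test on counts was the two-sided quasi-likelihood F test of edgeR 4.0.16 (R 4.3.3, filterByExpr, TMM, robust fit) over 12710 genes, with Benjamini-Hochberg adjustment at 0.05. The genotype fit held genotype alone, and the replicate fit held replicate number and genotype. Total counts were 9280635 to 22411342 per library. The fits were tested on simulated data with known changes. The genotype fit recovered 61% of 2-fold and 100% of 4-fold changes, with 18 false calls among 179. The replicate fit recovered 62% and 100%, with 15 false calls among 177. For genotype with a replicate term, recovery was 38% and 100%, with 6 false calls among 144. The simulated data of the fit on genotype alone held no difference between replicates, unlike the real libraries, so recovery there is not known. In the real libraries Ccl5, the gene that the CCL5-/- mice lack, was called neither by that fit nor with a replicate term. FPKM was compared as log2(FPKM + 1) over genes of at least 1 FPKM in either library, with no test, and its depth is unknown. Alternatives were the filter, size factors, DESeq2 1.42.0, limma-voom (limma 3.58.1), Rn45s left out, a replicate block, each library left out and other pseudocounts. Differences within each replicate number were added after the data were seen.

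The 8 genes and the 14 lists were chosen with earlier results of these data known. Named besides the 8 were up to 5 members of each list by smallest p in the fit with the replicate block, and the 10 genes nearest the median profile, with a mean log2 CPM of at least 3. Further list members named, such as those called between replicates, and H2-Eb2 were chosen after their values were seen.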

Additional observations from a re-analysis of the deposited data

Results flagged for a closer look

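By the genotype fields alone, Ciita differed in opposite directions in the count table and in the FPKM table. In the libraries labelled F4/80low both CCL5-/- libraries, at 5.81 and 3.23 CPM, lay below both WT libraries, at 6.01 and 6.34 CPM. In those labelled F4/80hi the library labelled CCL5-/- was higher, at 1.21 FPKM against 0.846 FPKM in the one labelled WT, a difference of 0.26 on the log2(FPKM + 1) scale. The authors' bounds, 0.201 to 2.23 and 0.0610 to 1.63 FPKM, overlapped. The difference between the tables was not tested. The titles of the F4/80hi libraries name the opposite genotypes, which would turn the F4/80hi value to the direction of the count table. These libraries were counted as the same as those of replicate 1. In the replicate 1 pair of the count table the difference in Ciita was -0.048 in log2.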

How the results depend on the processing

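For the genotype, edgeR called 0 genes, with 41 at an unadjusted p under 0.05, and DESeq2 called 1. The replicate block gave 10 genes, 23 with DESeq2 and 47 with limma-voom, and leaving out a library gave 0 to 4 (1 without WT replicate 1, 4 without WT replicate 2, 1 without CCL5-/- replicate 2). No class II gene passed under any of these. With the replicate block their differences ran from -0.56 (Ciita) to -0.08 (Cd74), at edgeR adjusted p of 0.899 to 0.991. The labels do not say that equal replicate numbers share a source. Over 12710 genes the replicate difference in WT correlated with that in CCL5-/- (r = 0.728), and with 2 pairs this does not settle the pairing. Signs turned with limma-voom for H2-Ab1 (0.068) and Cd74 (0.034), and with the replicate block and limma-voom for H2-Ab1 (0.014). Within replicate number 1 they turned for H2-Aa (0.54), H2-Ab1 (0.73), H2-Eb1 (0.45), H2-DMb1 (1.02), H2-DMb2 (0.12) and Cd74 (0.39). The ranges with a library left out, where a lone library is assumed to vary like the others, were -1.89 to 1.52 for H2-Aa, -2.01 to 1.98 for H2-Ab1, -1.30 to 1.08 for H2-Eb1, -0.70 to -0.07 for H2-DMa, -1.39 to 1.71 for H2-DMb1, -0.78 to 0.25 for H2-DMb2, -0.85 to 0.83 for Cd74 and -0.89 to -0.09 for Ciita. Apart from fewer samples, the cause of these changes was not tested.

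Between replicates 4047 genes passed, and 2836 to 4620 under the alternatives, where the 5 class II calls held in each. Leaving out a library was not run there, as it leaves no residual degrees of freedom. In F4/80hi 458 genes were at least 2-fold apart, and 854 with a pseudocount of 0.1, which raises the ratios of low genes. Depth limits H2-DMb1 (32 reads) and Ciita (35 reads) in WT replicate 1.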
